A study of Mus musculus with 10 samples.

Results

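The 31 genes described here serve the unfolded protein response (UPR) and the integrated stress response (ISR) of mouse cells, and their mRNA was measured in basophils, mast cells and eosinophils grown from bone marrow (BM). They were chosen by symbol: a probe set belonged to a gene when the annotation of the array paired it with that gene symbol alone, and for a gene with several probe sets the one with the highest mean signal was taken. All 31 listed genes were measured, among 19937 genes named in this way, and all 31 lay above the background of all 10 arrays. By role they comprised 5 chaperones and lectins of the endoplasmic reticulum (ER), 4 co-chaperones, 4 protein disulfide isomerases, 2 secreted ER stress proteins, 5 sensors and transcription factors, 5 genes of ER-associated degradation (ERAD) and of the translocon, and 6 targets of the ISR.

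Proteins bound for secretion, for granules or for the cell surface fold in the ER, where BiP and other chaperones hold them, lectins retain their glycosylated forms and disulfide isomerases join their cysteines. When unfolded proteins accumulate, the sensors IRE1, PERK and ATF6 raise the transcription of folding and degradation genes, while PERK and related kinases phosphorylate the translation factor eIF2alpha, which slows translation in general and favours that of ATF4. Basophils, mast cells and eosinophils are secretory cells that store granule proteins and release cytokines when they are stimulated.

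Cells came from wild-type (B6) mice and from Slpi-/- mice, which lack secretory leukoprotease inhibitor, both labelled as C57BL6/N. From BM of each genotype, IL-3 cultures gave BM-derived basophils (BMBs), which were separated on magnetic beads, and mast cells, and cultures with FLT3 ligand, stem cell factor and IL-5 gave BM-derived eosinophils (BMEos). BMBs were unstimulated, or received anti-TNP-IgE (1 h) followed by 12 h of the antigen TNP-ovalbumin ("with IgE" below), mast cells were unstimulated, and BMEos were unstimulated or were given lipopolysaccharide (LPS) for 3 h. There was 1 Affymetrix Mouse Gene 1.0 ST array for each of the 10 conditions, and the sources used here do not give the number of mice behind an array. For cell types and stimuli, the SE takes the 2 genotypes as replicates. For genotype, it takes the settings. It is pooled over the cell types of a fit and moderated across genes, so a gene has the same SE for IgE and LPS. It can thus be smaller than the gap between the genotypes in 1 cell type would give.

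Values are log2 RMA signals, so that a difference of 1 is 2-fold, and the level of a gene is compared across arrays only, since probe sets differ in their response. As background served the signal that 95% of the 1027 olfactory receptor genes stayed below, which was 5.56 to 5.78 depending on the array. Basophil markers were all above background on the BMB arrays (*Mcpt8* 12.72 to 13.29, at most 5.58 elsewhere), *Kit* was 12.78 and 12.80 in mast cells, and *Epx* was 10.67 to 11.57 on the BMEos arrays. *Slpi* was 11.42 and 11.33 in B6 BMBs against 6.55 and 6.35 in Slpi-/- BMBs and 8.08 and 7.96 against 6.41 and 5.93 in BMEos, and it gives no check of the mast cell labels (6.53 and 6.47). Some arrays stood apart from their labels. The array of unstimulated B6 BMBs had more signal for several neutrophil genes than the other BMB arrays (*Mpo* 8.84 against 5.60 to 5.995). The arrays of BMEos with LPS were the only ones with *Xist* above background (9.66 and 9.72, against 3.99 to 4.90 on the other 8), and they lacked the Y-linked *Eif2s3y* (3.22 and 3.54), so the sex of the mice cannot be told apart from LPS.

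Across the 10 arrays, the stress genes were highest in BMBs with IgE. In 23 of the 31 genes the mean of the B6 and Slpi-/- arrays was highest in this setting, in 4 it was highest in mast cells, in 3 in unstimulated BMEos and in 1 in unstimulated BMBs. Relative to each gene's own mean, the median of the 31 genes was 0.59 and 0.61 on the arrays of BMBs with IgE, 0.17 in unstimulated B6 BMBs and between -0.20 and -0.31 on the other 7 arrays. The range of a gene over the arrays ran from 0.62 for *Sel1l* to 4.37 for *Ppp1r15a*.

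**Figure D1:**
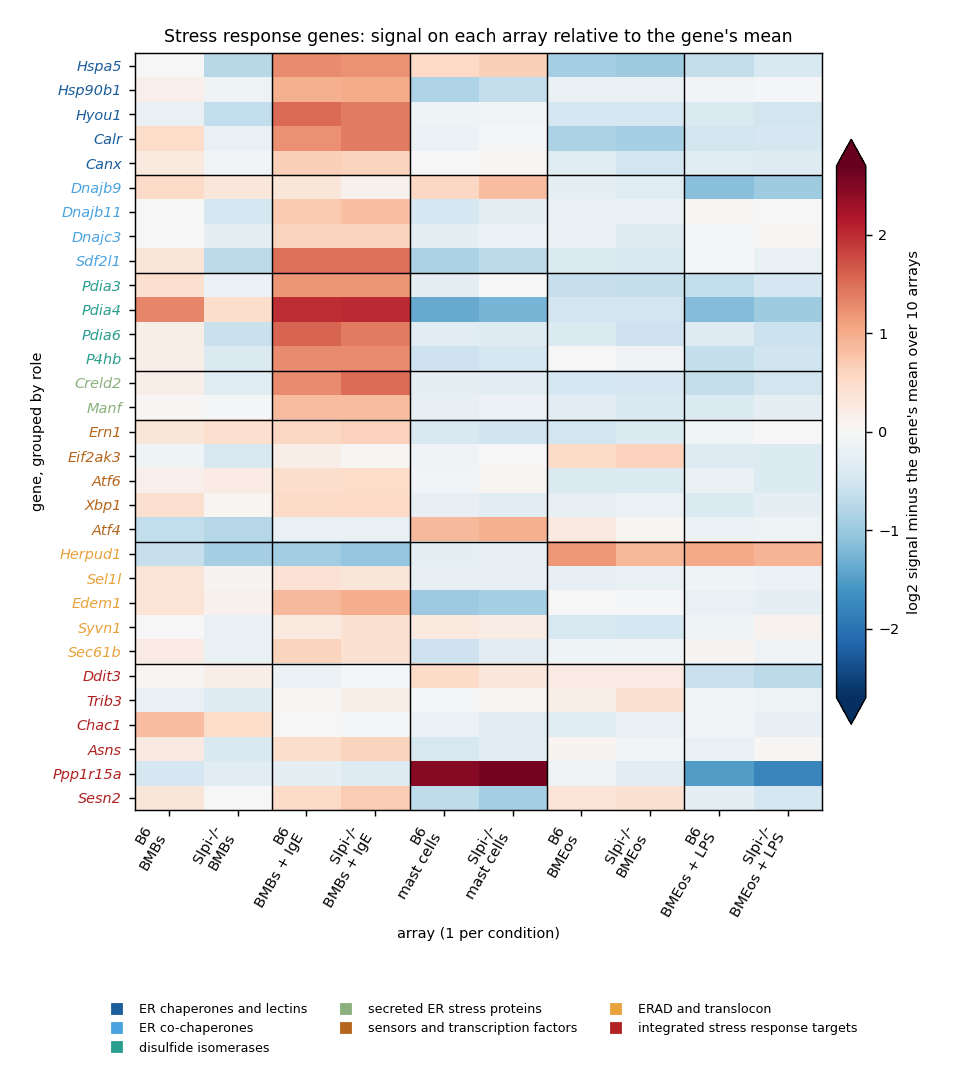
Heatmap of the 31 stress response genes (rows, in the colour of their role) on the 10 arrays (columns); the colour gives the log2 signal minus the gene's mean over the 10 arrays. Apart from Dnajb9, the folding genes in the upper rows are clearly red in BMBs with IgE in both genotypes, Ppp1r15a is red in mast cells and blue in BMEos with LPS, and Herpud1 is red in BMEos.

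The first comparison asked how IgE and antigen changed these genes in BMBs. The chaperones, isomerases and secreted ER proteins rose together, and no ISR target among the 31 was called higher. That holds for these 6 targets only, since 11 of 21 other ATF4 targets rose, as given below. Of the 31 genes, 19 rose, 1 fell and 11 did not pass the test (limma, Benjamini-Hochberg adjusted p under 0.05). Over all 13571 genes tested, 12.2% were called higher and 10.6% lower, and the median difference was 0.53 for the 31 genes and -0.02 for all genes.

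All 5 chaperones and lectins rose with IgE. *Hspa5*, which encodes BiP, the main Hsp70 chaperone of the ER, had signals of 10.42 (B6) and 9.69 (Slpi-/-) without IgE and 11.72 and 11.64 with it. The fitted difference was 1.62 ± 0.17 (log2 difference ± SE), adjusted p = 0.00198 by limma, or 3.08-fold. Both stimulated arrays lay above both unstimulated ones. *Hyou1*, a large relative of Hsp70 that exchanges the nucleotide of BiP, had 8.40 (B6) and 7.94 (Slpi-/-) without IgE and 10.14 and 10.01 with it. With 1.90 ± 0.11, adjusted p = 6.52e-04 (3.74-fold), its difference was the largest of the 31. *Hsp90b1*, the Hsp90 chaperone of the ER, differed by 0.98 ± 0.11, adjusted p = 0.00242. The lectin chaperones calreticulin and calnexin retain glycoproteins that carry a single glucose. *Calr* had 11.25 (B6) and 10.55 (Slpi-/-) without IgE and 11.99 and 12.15 with it (1.17 ± 0.19, adjusted p = 0.00848), and *Canx*, which encodes calnexin, differed by less (0.53 ± 0.11, adjusted p = 0.0188).

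Of the 4 co-chaperones, 3 rose and 1 did not. *Sdf2l1*, which binds the J-domain protein ERdj3 in the ER lumen, had 9.40 (B6) and 8.37 (Slpi-/-) without IgE and 10.56 and 10.55 with it, a difference of 1.67 ± 0.22, adjusted p = 0.00422. Its unstimulated arrays were far apart from each other, and its stimulated arrays were nearly equal. ERdj3 itself, the product of *Dnajb11*, delivers substrates to BiP, and *Dnajb11* differed by 0.99 ± 0.14, adjusted p = 0.0053. *Dnajc3*, whose product is another J-domain partner of BiP, differed by 0.73 ± 0.11, adjusted p = 0.00696. *Dnajb9* encodes ERdj4, a J-domain protein known as a target of XBP1. It had 9.21 (B6) and 8.997 (Slpi-/-) without IgE and 9.01 and 8.82 with it, and did not pass the test (-0.19 ± 0.10, adjusted p = 0.256).

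The 4 disulfide isomerases rose. *Pdia6* had 8.45 (B6) and 7.70 (Slpi-/-) without IgE and 9.87 and 9.71 with it, and differed by 1.71 ± 0.15, adjusted p = 0.00144, or 3.28-fold. *P4hb*, which encodes protein disulfide isomerase itself, had 10.63 (B6) and 10.07 (Slpi-/-) without IgE and 11.75 and 11.74 with it (1.39 ± 0.15, adjusted p = 0.00205). Stimulated and unstimulated arrays did not overlap in either gene. *Pdia4* differed by 1.11 ± 0.20, adjusted p = 0.0108, with 11.65 (B6) and 10.80 (Slpi-/-) without IgE and 12.32 and 12.34 with it, and its dimmer second probe set was higher too (7.05 and 6.70 without IgE, 8.18 and 8.33 with it). *Pdia3*, whose product works with calreticulin and calnexin on glycoproteins, differed by 1.06 ± 0.15, adjusted p = 0.00557. The secreted ER stress proteins rose as well. *Creld2* had 8.69 (B6) and 8.19 (Slpi-/-) without IgE and 9.79 and 10.01 with it (1.46 ± 0.17, adjusted p = 0.0029). *Manf*, a neurotrophic factor of the ER, had 8.07 (B6) and 8.01 (Slpi-/-) without IgE and 8.89 and 8.90 with it (0.85 ± 0.10, adjusted p = 0.00299), and its genotypes lay closer together than those of *Creld2*.

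Of the 5 sensors and transcription factors, 2 rose. *Atf4* rose by 0.51 ± 0.10, adjusted p = 0.015, with 7.97 (B6) and 7.85 (Slpi-/-) without IgE and 8.43 and 8.41 with it, and *Eif2ak3*, which encodes PERK, rose by 0.39 ± 0.10, adjusted p = 0.0347. *Atf6* (0.31 ± 0.10, adjusted p = 0.0691), *Xbp1* (0.28 ± 0.12, adjusted p = 0.151) and *Ern1*, which encodes IRE1alpha (0.21 ± 0.09, adjusted p = 0.17), did not pass the test. A probe set for a whole gene does not separate the spliced *Xbp1* mRNA that IRE1 makes from the unspliced one, and ATF4 and PERK act through translation and phosphorylation, which an mRNA array does not measure. Among the ERAD and translocon genes, *Edem1*, which draws misfolded glycoproteins into degradation, rose by 0.68 ± 0.12, adjusted p = 0.0096. *Syvn1*, the membrane ubiquitin ligase Hrd1, rose by 0.44 ± 0.12, adjusted p = 0.0454, and *Sec61b*, a subunit of the Sec61 channel, by 0.50 ± 0.11, adjusted p = 0.0207. The 3 probe sets of *Sec61b* differed in level and each was higher with IgE in both genotypes, so the size of its difference is uncertain. *Sel1l*, the partner of Hrd1 (0.15 ± 0.10, adjusted p = 0.334), and *Herpud1* (-0.23 ± 0.10, adjusted p = 0.158) did not pass.

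Of the 6 ISR targets described here, none was called higher with IgE and 1 was called lower, while 4 had positive differences. *Chac1*, which encodes an enzyme that degrades glutathione, had 7.30 (B6) and 6.94 (Slpi-/-) without IgE and 6.45 and 6.41 with it, a difference of -0.69 ± 0.12 (log2 difference ± SE), adjusted p = 0.00996. *Ddit3*, which encodes CHOP, had 8.16 (B6) and 8.31 (Slpi-/-) without IgE and 7.97 and 8.08 with it (-0.21 ± 0.09, adjusted p = 0.17). *Ppp1r15a*, which encodes the GADD34 subunit that brings a phosphatase to eIF2alpha, had 7.54 (B6) and 7.71 (Slpi-/-) without IgE and 7.76 and 7.65 with it (0.08 ± 0.11, adjusted p = 0.661). Neither gene passed the test. Positive differences that did not pass were seen for *Asns*, asparagine synthetase (0.63 ± 0.19, adjusted p = 0.0625), *Sesn2*, a sestrin (0.44 ± 0.14, adjusted p = 0.0726), and the pseudokinase gene *Trib3* (0.36 ± 0.12, adjusted p = 0.0796). When either B6 BMB array was left out, only the Slpi-/- pair remained, with differences of 1.03 for *Asns* and 0.69 for *Sesn2*.

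The 2 genotypes gave the IgE differences with unequal sizes. For *Hspa5* the B6 pair of arrays differed by 1.29 and the Slpi-/- pair by 1.95, for *Calr* by 0.73 and 1.60, and for *Sdf2l1* by 1.16 and 2.18. The stimulated arrays of the genotypes were close to each other in these genes and the unstimulated arrays were not. With 1 array per condition, a genotype effect on the IgE difference could not be tested. The unstimulated B6 array with the higher signal is the one with more neutrophil marker signal: the median of 7 such markers was 6.77 there, 5.47 in unstimulated Slpi-/- BMBs and 5.16 and 5.17 with IgE, and its part in the result was not tested. The neutrophil marker *Ly6g* did not follow this order, with 12.38 (B6) and 12.68 (Slpi-/-) without IgE and 10.95 and 11.15 with it, above background on all 4 BMB arrays and lower on both stimulated ones. With either B6 BMB array left out, the IgE difference was that of the Slpi-/- pair alone, and the reverse. The spread then came from the BMEos arrays, so these fits held no spread between BMB arrays. Without a Slpi-/- array the calls of *Canx*, *Dnajc3*, *Pdia4*, *Eif2ak3*, *Atf4*, *Edem1*, *Syvn1* and *Sec61b* were lost, with differences from 0.27 (*Syvn1*) to 0.67 (*Pdia4*). Without a B6 array, those of *Eif2ak3* (0.47), *Atf4* (0.57) and *Chac1* (-0.53) were lost. Of 7 macrophage and dendritic cell markers, 5 to 6 were above background on a BMB array. *Csf1r* had 6.92 (B6) and 6.78 (Slpi-/-) without IgE and 5.73 and 6.53 with it. *Adgre1* went the other way, with 11.33 and 10.82 without IgE and 11.88 and 11.64 with it. The megakaryocyte gene *Pf4* had 9.88 and 10.16 without IgE and 8.96 and 10.85 with it. The part of these genes was not tested. Of 6 B and plasma cell markers measured, 1 to 3 were above background on an array. *Jchain*, *Cd79a* and *Ms4a1* were below it on all 10 arrays and *Mzb1* just above it on all 10 (5.61 to 6.11), and *Irf4* had 5.33 (B6) and 5.76 (Slpi-/-) without IgE and 6.42 and 6.70 with it, whose part in the result was not tested.

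**Figure D2:**
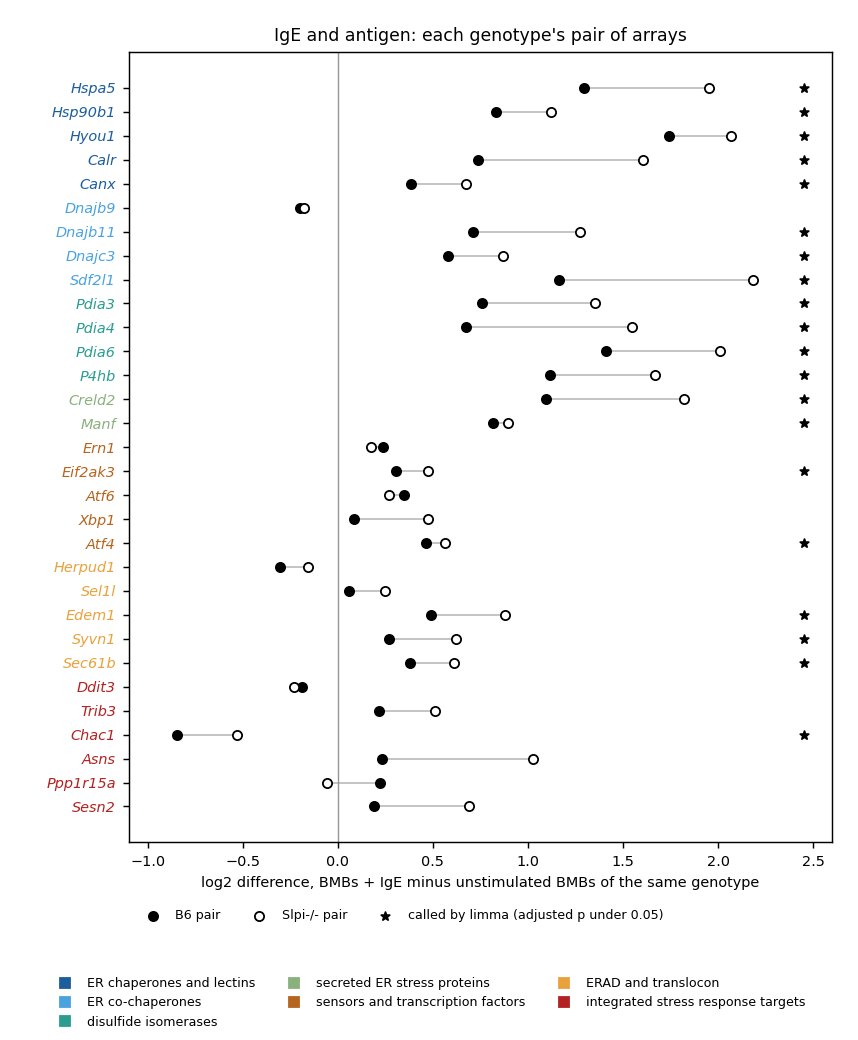
Differences with IgE in the B6 pair of arrays (filled) and the Slpi-/- pair (open) for each of the 31 genes (rows, in the colour of their role); the x axis is the log2 difference between BMBs with IgE and unstimulated BMBs, and a star marks the 20 genes called by limma. The Slpi-/- point lies to the right of the B6 point in all chaperones, isomerases and secreted proteins, and Chac1 is the called gene on the left.

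The promoters of these genes were searched for the sequences through which ATF6, XBP1 and ATF4 are known to act, in the RefSeq windows from 250 bases before to 50 after each start (build GRCm38.p6). A window was given for 28 of the 31 genes, and not for *Hyou1*, *Manf* and *Atf6*. The ER stress element (CCAAT, 9 bases, then CCACG, on either strand) was in 8 of these 28 promoters and in 37, or 0.137%, of 27025 genes. The genes with it were *Hspa5*, *Hsp90b1*, *Calr*, *Canx*, *Dnajc3*, *Pdia6*, *Creld2* and *Syvn1*. All 8 rose with IgE, by 0.44 to 1.71, as did 9 of the 20 without it. The element went with role, since 7 of the 8 were among the 13 folding genes searched and none among the 6 ISR targets. The folding genes *Dnajb11*, *Sdf2l1*, *Pdia3*, *Pdia4* and *P4hb* rose without it. Element and role cannot be told apart in these counts. ER stress element II (ATTGG, 1 base, then CCACG) was in *Dnajb11* and *Herpud1*, against 0.0444% of all genes. The C/EBP-ATF core TGATGNAA was in *Herpud1*, *Trib3*, *Chac1* and *Asns*, 14.3% of the 28 against 4.51% of all genes. None of these 4 was called higher with IgE, with differences from -0.69 (*Chac1*) to 0.63 (*Asns*). CCACG alone was in 22 of the 28, or 78.6%, against 35.5%, and it lies within both ER stress elements, and the UPR element TGACGTGG was in none of the 28, against 0.714%. These matches are letters in a window and do not show that a factor was bound there. The genes were listed as members of these responses, and the sequences were searched as known sites of their factors. A higher share than over all genes is thus no result of these arrays. The 6 promoters below show the elements in genes that rose (*Hspa5*, *Hsp90b1*, *Pdia6* and *Syvn1*), in a gene that did not pass (*Herpud1*) and in the gene that fell (*Chac1*). Each is written 5′ to 3′ along the gene, with the ER stress elements or the C/EBP-ATF core in capitals. *Hspa5* lies at chr2:34771840-34772139, plus strand, *Hsp90b1* at chr10:86705395-86705694, minus strand, *Pdia6* at chr12:17266339-17266638, plus strand, *Syvn1* at chr19:6046326-6046625, plus strand, *Herpud1* at chr8:94386179-94386478, plus strand and *Chac1* at chr2:119350992-119351291, plus strand.
Hspa5: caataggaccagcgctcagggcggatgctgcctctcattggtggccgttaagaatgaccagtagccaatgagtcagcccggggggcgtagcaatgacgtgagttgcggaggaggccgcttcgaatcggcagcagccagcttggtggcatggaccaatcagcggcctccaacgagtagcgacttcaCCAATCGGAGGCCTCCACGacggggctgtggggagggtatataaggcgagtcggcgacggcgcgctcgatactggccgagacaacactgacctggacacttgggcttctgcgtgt
Hsp90b1: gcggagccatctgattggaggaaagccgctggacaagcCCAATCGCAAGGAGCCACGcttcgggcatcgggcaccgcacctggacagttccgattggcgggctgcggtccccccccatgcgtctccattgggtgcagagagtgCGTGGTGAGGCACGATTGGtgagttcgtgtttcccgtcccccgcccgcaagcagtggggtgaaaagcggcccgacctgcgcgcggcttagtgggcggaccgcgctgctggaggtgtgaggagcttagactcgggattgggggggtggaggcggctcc
Pdia6: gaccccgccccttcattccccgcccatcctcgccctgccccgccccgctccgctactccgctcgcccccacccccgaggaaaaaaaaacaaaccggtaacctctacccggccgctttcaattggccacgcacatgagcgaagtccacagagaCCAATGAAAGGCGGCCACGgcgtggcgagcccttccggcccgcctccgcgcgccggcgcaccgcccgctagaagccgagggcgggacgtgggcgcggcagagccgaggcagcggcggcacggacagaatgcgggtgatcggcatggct
Syvn1: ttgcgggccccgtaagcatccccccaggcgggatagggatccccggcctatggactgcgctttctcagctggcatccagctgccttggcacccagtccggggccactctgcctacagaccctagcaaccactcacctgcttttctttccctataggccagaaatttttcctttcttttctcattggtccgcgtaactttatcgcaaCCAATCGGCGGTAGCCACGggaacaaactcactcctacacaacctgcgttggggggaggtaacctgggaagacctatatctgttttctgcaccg
Herpud1: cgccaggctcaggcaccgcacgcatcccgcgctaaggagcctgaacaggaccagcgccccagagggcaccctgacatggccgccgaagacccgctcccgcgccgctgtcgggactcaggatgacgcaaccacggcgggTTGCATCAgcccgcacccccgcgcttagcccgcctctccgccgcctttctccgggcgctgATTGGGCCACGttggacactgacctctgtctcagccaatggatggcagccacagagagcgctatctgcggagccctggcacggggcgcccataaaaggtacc
Chac1: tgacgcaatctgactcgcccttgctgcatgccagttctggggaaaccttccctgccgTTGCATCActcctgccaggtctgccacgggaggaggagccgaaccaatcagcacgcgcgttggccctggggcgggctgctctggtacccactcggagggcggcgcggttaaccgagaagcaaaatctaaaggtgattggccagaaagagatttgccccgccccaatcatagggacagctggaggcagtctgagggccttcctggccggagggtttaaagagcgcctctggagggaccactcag

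The ER stress element of *Hspa5* began 65 bases before the start, that of *Pdia6* 98 bases before and that of *Syvn1* 44 bases before. *Hsp90b1* held a pair of them, 212 bases before the start and, on the other strand, 107 bases before. In *Herpud1*, element II began 52 bases before the start and the C/EBP-ATF core, on the other strand, 112 bases before. The core of *Chac1*, also on the other strand, began 193 bases before.

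Other genes of the same pathways, from lists that hold none of the 31, were set beside them. The shares over all genes with IgE were 12.2% higher and 10.6% lower. Of 14 other translocon and signal peptide genes tested, 11 rose with IgE and none fell, among them *Ssr2*, a translocon-associated protein (1.17 ± 0.18), and the signal peptidase subunit *Spcs3* (1.08 ± 0.09). Of 13 other ER folding and oxidation genes, 9 rose and none fell, with *Fkbp2* (1.34 ± 0.12) and *Txndc5* (0.91 ± 0.15) the furthest. Of 12 other ERAD genes, 4 rose and none fell, and *Selenos*, of the Derlin complex, differed by 1.00 ± 0.09. Of 10 other UPR sensors and regulators, 3 rose and 1 fell, with *Creb3l2*, a membrane-bound relative of ATF6, at 0.92 ± 0.12. The lists of the ISR follow. Of 21 other ATF4 targets, 11 rose and none fell, led by *Psat1*, an enzyme of serine synthesis (1.65 ± 0.20), the amino acid transporter *Slc7a1* (1.12 ± 0.12), stanniocalcin 2, encoded by *Stc2* (1.06 ± 0.15), and the transporter *Slc7a5* (1.02 ± 0.13). In unstimulated Slpi-/- BMBs *Stc2* was not above background. Of 16 aminoacyl-tRNA synthetase genes, 8 rose and none fell, with *Rars* at 1.11 ± 0.11. Of 11 other genes of the eIF2alpha kinases and of eIF2, 4 rose and 2 fell, with the eIF2B subunit gene *Eif2b3* at 1.01 ± 0.10 and the heme-regulated kinase gene *Eif2ak1* at -0.96 ± 0.12.

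The second comparison asked what LPS changed in BMEos. Most folding genes did not pass the test, and the genes for PERK, CHOP and GADD34 were lower. Of the 31 genes, 2 rose, 6 fell and 23 did not pass the test, against 12.7% of all 13571 genes called higher and 16.2% lower. The share that fell was near that over all genes, so the count alone is no result about the 31. The median difference was 0.03 for the 31 genes and 0.02 for all genes.

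*Ppp1r15a* fell furthest, from 7.90 (B6) and 7.69 (Slpi-/-) to 6.50 and 6.21. The difference was -1.44 ± 0.11 (log2 difference ± SE), adjusted p = 3.53e-04 by limma. *Eif2ak3* had 8.14 (B6) and 8.23 (Slpi-/-) without LPS and 7.27 and 7.25 with it (-0.92 ± 0.10, adjusted p = 0.00132). In both genes the stimulated arrays lay below the unstimulated ones. *Ddit3* had 8.33 (B6) and 8.35 (Slpi-/-) without LPS and 7.51 and 7.41 with it (-0.88 ± 0.09, adjusted p = 0.00129). *Sesn2* had 9.04 (B6) and 9.07 (Slpi-/-) without LPS and 8.42 and 8.19 with it (-0.75 ± 0.14, adjusted p = 0.011). Thus 3 of the 6 ISR targets were lower, and of the others *Trib3* was nearest to the threshold (-0.40 ± 0.12, adjusted p = 0.0505). Among the folding genes, *Dnajb9* fell, with 8.46 (B6) and 8.36 (Slpi-/-) without LPS and 7.56 and 7.72 with it (-0.77 ± 0.10, adjusted p = 0.00316), and so did *P4hb* (-0.54 ± 0.15, adjusted p = 0.0348).

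The genes that rose with LPS were *Ern1*, with 8.34 (B6) and 8.48 (Slpi-/-) without LPS and 8.79 and 8.86 with it (0.41 ± 0.09, adjusted p = 0.0195), and *Syvn1*, with 8.07 (B6) and 8.04 (Slpi-/-) without LPS and 8.39 and 8.60 with it (0.44 ± 0.12, adjusted p = 0.04). Both rose by less than 2-fold, and neither was called when any of the 4 BMEos arrays was left out. *P4hb* lost its call in the same way, and *Sesn2* when either Slpi-/- array was left out, with a highest adjusted p of 0.104. No chaperone or lectin passed the test. *Hspa5* had 9.52 (B6) and 9.48 (Slpi-/-) without LPS and 9.79 and 10.03 with it (0.41 ± 0.17, adjusted p = 0.116) and *Hyou1* had 8.13 (B6) and 8.13 (Slpi-/-) without LPS and 8.22 and 8.11 with it (0.03 ± 0.11, adjusted p = 0.85). As given above, the arrays with LPS differed from all others in *Xist* and Y-linked genes, and LPS and that difference cannot be told apart in any of these values. *Csf1r*, a marker of macrophages, was 9.43 and 9.62 without LPS and 10.44 and 10.27 with it, 4 to 5 of 7 macrophage and dendritic cell markers were above background on these 4 arrays, *C1qa* rose above it only with LPS and *Flt3* lay below it on all 4, and their part in the results was not tested.

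The related lists are given beside the same shares over all genes, 12.7% higher and 16.2% lower. Of 21 other ATF4 targets, 2 rose and 7 fell, with the glycine transporter gene *Slc6a9* at -1.92 ± 0.10 and *Ddit4*, an inhibitor of mTORC1 signalling, at -1.76 ± 0.14. Those that rose were *Phgdh*, an enzyme of serine synthesis (1.01 ± 0.12), and the cystine transporter gene *Slc7a11* (0.97 ± 0.09). Of 11 other eIF2alpha kinase and eIF2 genes, 1 rose and 4 fell, and the gene that rose was *Eif2ak2*, which encodes the double-stranded RNA kinase PKR (3.68 ± 0.10). Of 13 other folding and oxidation genes none rose and 1 fell, the oxidase gene *Ero1a* (-1.05 ± 0.09). Among the rest, none of 14 translocon genes rose and 3 fell, none of 12 ERAD genes rose and 3 fell, 1 of 10 UPR sensors and regulators rose and 3 fell, and 1 of 16 aminoacyl-tRNA synthetase genes rose and 4 fell.

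The difference between the stimuli was tested in the same fit, as the LPS difference in BMEos minus the IgE difference in BMBs. The value was lower for 19 of the 31 genes, higher for 1 and not called for 11, against 13.3% of all genes lower and 9.71% higher. The median was -0.77 for the 31 genes and 0.03 for all genes. The largest gaps were those of *P4hb* (-1.94 ± 0.21, adjusted p = 0.00188), *Hyou1* (-1.87 ± 0.16, adjusted p = 8.94e-04) and *Pdia6* (-1.70 ± 0.21, adjusted p = 0.00331). All 4 isomerases, both secreted proteins, 3 of 5 chaperones and 3 of 4 co-chaperones were lower in this contrast. *Chac1* was the gene that was higher (0.80 ± 0.17, adjusted p = 0.0197), a call that was lost when any of the 4 B6 arrays in the contrast was left out (highest adjusted p 0.0916). The count of lower genes was 10 without the array of unstimulated or of LPS-stimulated B6 BMEos. The stimuli differed in agent, cell type and time, 12 h of antigen against 3 h of LPS. The arrays with LPS also differed from all others in *Xist* and Y-linked genes, and the contrast cannot tell these apart.

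**Figure D3:**
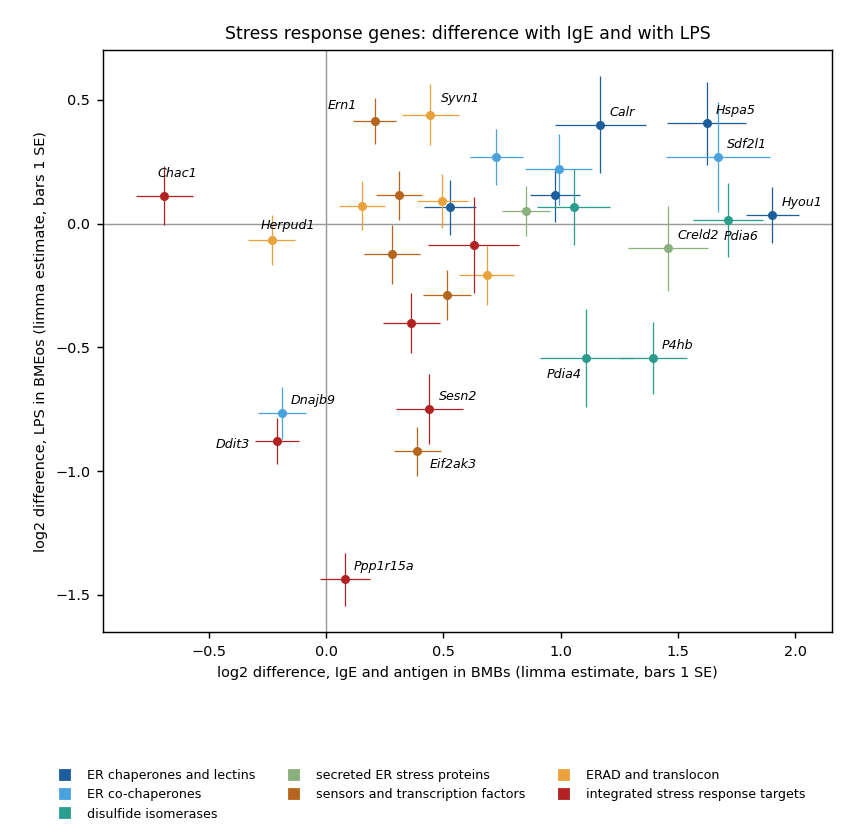
Difference with IgE in BMBs (x axis) against difference with LPS in BMEos (y axis) for the 31 genes, in log2 units, as limma estimates with bars of 1 SE in the colour of each gene's role. Chaperones, isomerases and secreted proteins spread along the x axis up to 1.90 (Hyou1), whereas Ppp1r15a, Eif2ak3, Ddit3, Dnajb9 and Sesn2 lie at -0.75 to -1.44 on the y axis.

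The third set of comparisons placed the unstimulated cell types against each other, and each array serves in more than 1 of them. Between BMBs and mast cells, 8 of the 31 genes were higher in BMBs, 5 were lower and 18 did not pass, against 18.8% and 17.9% of 12998 genes. Between BMEos and mast cells, 7 were higher in BMEos and 8 lower, against 24.3% and 26.8%. In both comparisons with mast cells the shares of the 31 were near those over all genes, so these counts are no result about the 31. Between BMEos and BMBs, 4 were higher in BMEos and 12 lower, against 18.6% and 21.2%. The median differences of the 31 genes were 0.19, -0.04 and -0.25, and those of all genes -0.01, -0.04 and -0.03. The counts moved by over 1.5 times when single arrays were left out: 15 genes were higher and 3 lower in BMBs than in mast cells without the Slpi-/- BMB array, and 3 lower without Slpi-/- mast cells. In BMEos against mast cells, 3 were higher without Slpi-/- BMEos, 4 without B6 mast cells, and 5 were lower without Slpi-/- mast cells. In BMEos against BMBs, 6 were lower without B6 BMEos, without B6 BMBs or without Slpi-/- BMEos.

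Of the cell types, mast cells had the highest signal for *Ppp1r15a* and *Atf4*. *Ppp1r15a* had 10.47 (B6) and 10.58 (Slpi-/-) in mast cells, 7.54 and 7.71 in BMBs and 7.90 and 7.69 in BMEos. The differences from mast cells were -2.90 ± 0.12 (log2 difference ± SE), adjusted p = 6.34e-06, in BMBs and -2.73 ± 0.12, adjusted p = 4.09e-06, in BMEos, by limma, which is 7.45-fold and 6.63-fold. BMBs and BMEos overlapped. The gene of the other phosphatase subunit, *Ppp1r15b*, which is not among the 31, did not share this order, with 7.90 (B6) and 7.97 (Slpi-/-) in mast cells, 7.83 and 7.62 in BMBs and 8.40 and 8.41 in BMEos (BMEos against mast cells 0.47 ± 0.11, adjusted p = 0.0103). *Atf4* had 9.50 (B6) and 9.58 (Slpi-/-) in mast cells, 7.97 and 7.85 in BMBs and 8.86 and 8.68 in BMEos, so that the 3 cell types did not overlap. Its differences were -1.63 ± 0.11, adjusted p = 4.23e-05 for BMBs against mast cells and -0.77 ± 0.11, adjusted p = 9.81e-04 for BMEos against mast cells. *Hspa5* had 10.98 (B6) and 11.08 (Slpi-/-) in mast cells, 10.42 and 9.69 in BMBs and 9.52 and 9.48 in BMEos, and was lower than in mast cells both in BMBs (-0.98 ± 0.20, adjusted p = 0.00803) and in BMEos (-1.53 ± 0.20, adjusted p = 6.32e-04). BMBs with IgE, at 11.64 and 11.72, were the only arrays above mast cells in this gene. Not all chaperones followed it, since *Hsp90b1* was higher than in mast cells in BMBs (0.74 ± 0.13, adjusted p = 0.00381) and in BMEos (0.57 ± 0.13, adjusted p = 0.00795, up to 0.0668 without B6 mast cells or Slpi-/- BMEos).

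BMBs were higher than both other cell types in *Pdia4*, *Ern1* and *Chac1*. *Pdia4* had 8.97 (B6) and 9.07 (Slpi-/-) in mast cells, 11.65 and 10.80 in BMBs and 9.81 and 9.81 in BMEos. BMBs exceeded mast cells by 2.20 ± 0.22, adjusted p = 3.19e-04, and the difference of BMEos from BMBs was -1.41 ± 0.22, adjusted p = 0.00244. *Ern1* had 8.44 (B6) and 8.32 (Slpi-/-) in mast cells, 9.19 and 9.31 in BMBs and 8.34 and 8.48 in BMEos (BMBs against mast cells 0.87 ± 0.11, adjusted p = 9.22e-04, BMEos against BMBs -0.84 ± 0.11, adjusted p = 0.00102). Mast cells and BMEos overlapped in *Ern1*. *Chac1* was higher in BMBs than in mast cells by 0.89 ± 0.13, adjusted p = 0.00175, and BMEos differed from BMBs by -0.93 ± 0.13, adjusted p = 0.00137. *Edem1* was lowest in mast cells, with 9.06 (B6) and 9.15 (Slpi-/-) in mast cells, 10.41 and 10.14 in BMBs and 10.06 and 9.99 in BMEos, and both BMBs (1.18 ± 0.12, adjusted p = 2.85e-04) and BMEos (0.92 ± 0.12, adjusted p = 5.59e-04) were above them, while BMEos against BMBs was not called (-0.25 ± 0.12, adjusted p = 0.131). *Calr*, at 10.60 (B6) and 10.69 (Slpi-/-) in mast cells, 11.25 and 10.55 in BMBs and 9.91 and 9.85 in BMEos, was lower in BMEos than in BMBs (-1.02 ± 0.19, adjusted p = 0.00492) and than in mast cells (-0.77 ± 0.19, adjusted p = 0.0127, up to 0.0854 without B6 BMEos or Slpi-/- mast cells).

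BMEos were higher than both other cell types in *Herpud1* and *Eif2ak3*. *Herpud1*, which encodes an ER membrane protein of the Hrd1 ligase complex, had 10.23 (B6) and 10.26 (Slpi-/-) in mast cells, 9.85 and 9.59 in BMBs and 11.65 and 11.39 in BMEos. BMEos exceeded mast cells by 1.27 ± 0.11, adjusted p = 1.01e-04 and BMBs by 1.79 ± 0.11, adjusted p = 3.89e-05, and the cell types did not overlap. *Eif2ak3* had 7.52 (B6) and 7.60 (Slpi-/-) in mast cells, 7.49 and 7.18 in BMBs and 8.14 and 8.23 in BMEos (BMEos against mast cells 0.62 ± 0.13, adjusted p = 0.00586, against BMBs 0.85 ± 0.13, adjusted p = 0.00208), and the first of these adjusted p-values was 0.0587 without Slpi-/- BMEos. In this gene mast cells lay above both BMB arrays, and BMBs against mast cells was not called (-0.22 ± 0.13, adjusted p = 0.226, and 0.0485 without B6 BMBs). *Sesn2* was lowest in mast cells, with 7.97 (B6) and 7.76 (Slpi-/-) in mast cells, 9.002 and 8.67 in BMBs and 9.04 and 9.07 in BMEos, and BMBs (0.97 ± 0.12, adjusted p = 7.80e-04) and BMEos (1.19 ± 0.12, adjusted p = 1.73e-04) were above them. *Dnajb9* was lower in BMEos than in mast cells (-0.98 ± 0.14, adjusted p = 0.00101) and than in BMBs (-0.69 ± 0.14, adjusted p = 0.00692, and 0.0563 without Slpi-/- BMEos). *Xbp1*, at 10.47 (B6) and 10.41 (Slpi-/-) in mast cells, 11.13 and 10.77 in BMBs and 10.47 and 10.56 in BMEos, was higher in BMBs than in mast cells (0.50 ± 0.13, adjusted p = 0.0203), a call lost without B6 BMBs or either mast cell array (highest adjusted p 0.124). BMBs were separated on magnetic beads, a step not given for mast cells and BMEos, so purity may differ between the cell types. In none of them can fewer cells of a type and less RNA per cell be told apart.

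**Figure D4:**
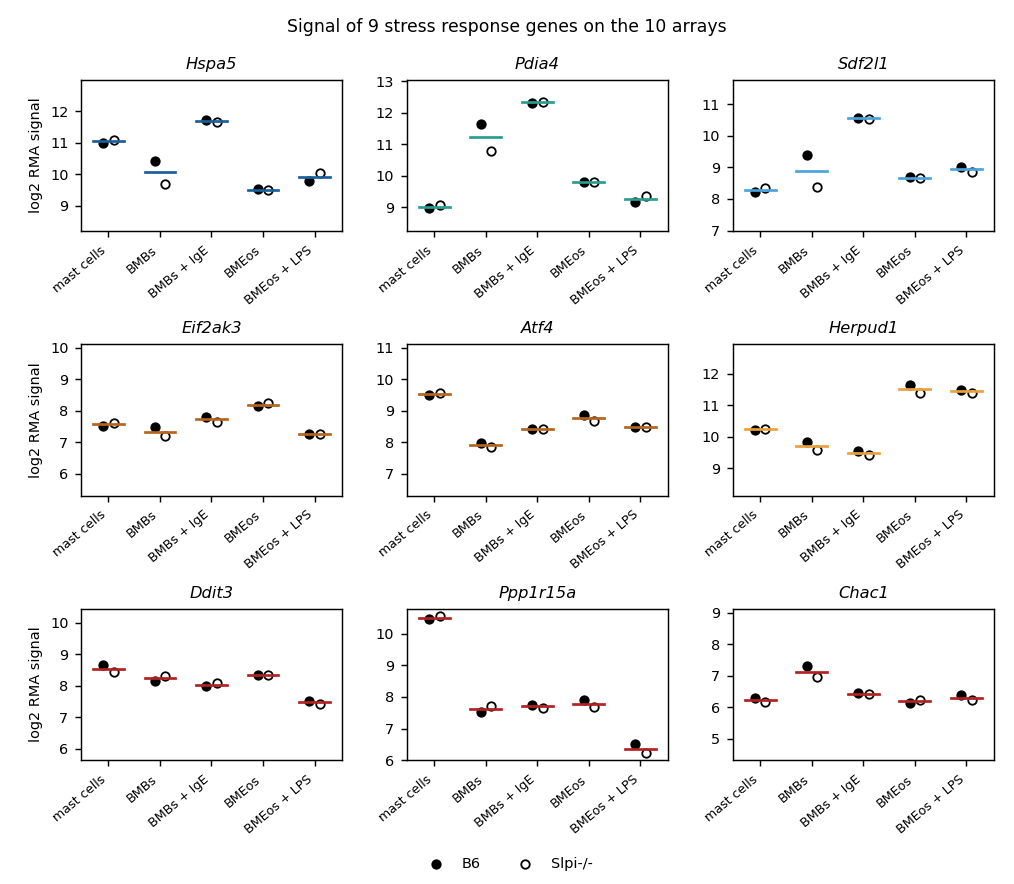
Log2 RMA signal of 9 of the genes in the 5 settings (x axis), with 1 point for the B6 array (filled), 1 for the Slpi-/- array (open) and a line at their mean; all panels span the same number of log2 units. Ppp1r15a and Atf4 are highest in mast cells, Herpud1 in BMEos with and without LPS, Hspa5, Pdia4 and Sdf2l1 in BMBs with IgE and Chac1 in unstimulated BMBs.

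Among the related lists, a few genes also set the cell types apart. *Creb3l1*, a membrane-bound transcription factor of the ER, was lower than in mast cells, with differences of -2.86 ± 0.15 in BMBs and -5.81 ± 0.15 in BMEos, where the B6 array was not above background, so the size of the latter is uncertain. *Slc7a11* was not above background in mast cells (5.11 and 5.34). Against the background limit of the mast cell arrays, it was at least 5.25-fold higher in BMBs (adjusted p = 8.15e-06 by limma) and at least 34.4-fold higher in BMEos (adjusted p = 3.45e-07). Over all genes, 18.8% were higher and 17.9% lower in BMBs than in mast cells, and 24.3% higher and 26.8% lower in BMEos. Of 21 other ATF4 targets, 6 were higher and 7 lower in BMBs than in mast cells, and 9 higher and 6 lower in BMEos. Of 14 translocon genes, none was higher than in mast cells in either, while 4 were lower in BMBs and 6 in BMEos.

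The last comparison was that of Slpi-/- with B6 cells. In BMBs and in BMEos the test took the unstimulated and stimulated pairs together, so it did not test unstimulated cells alone. None of the 31 genes was called in BMBs, in BMEos or over all 5 settings, and none differed in its genotype effect between BMEos and BMBs. Over all genes the tests called 0.00737%, 0.00737%, 0.00% and 0.00737% in these 4 cases (1, 1, 0 and 1 of 13571). At an unadjusted p under 0.05, 4 of the 31 genes passed in BMBs, 0 in BMEos, 1 over all settings and 0 for the difference, against 6.76%, 5.78%, 5.32% and 6.09% of all genes, and the methods' t-test called 0 in BMBs, in BMEos and over all settings after adjustment. The 4 genes in BMBs were *Hspa5*, *Hyou1*, *Pdia6* and *Sec61b*, and the lowest adjusted p among them was 0.628 for *Pdia6* (-0.46 ± 0.15 by limma).

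Single pairs of arrays showed where the genotypes were apart. In unstimulated BMBs, 27 of the 31 genes were lower in the Slpi-/- array, with a median difference of -0.33, while 54.8% of all genes were lower there, with a median of -0.02. Of the 31, 8 were lower by at least 0.5, against 2.75% of all genes, and 1 differed by at least 2-fold, against 0.737%. That gene was *Sdf2l1* (-1.03). The others past 0.5 were *Pdia4* (-0.85), *Pdia6* (-0.76), *Hspa5* (-0.74), *Calr* (-0.70), *Asns* (-0.65), *Pdia3* (-0.59) and *P4hb* (-0.56). The folding genes led this list, and *Asns* was the ISR target in it. With 1 array each, these differences have no replicate check. The B6 array of the pair is the one with more *Mpo* (8.84 against 5.995), *Elane* (7.14 against 5.47) and *Ngp* (6.77 against 5.02). Not all neutrophil markers went this way, since *Ly6g* (12.38 against 12.68) and *Camp*, near background (5.47 against 5.72), were higher in Slpi-/-. The part of these markers in the differences was not tested.

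The pattern was not seen in the other pairs. With IgE, the median of the 31 genes was 0.01, 14 were lower in Slpi-/- and *Sdf2l1* differed by -0.0031. In mast cells the median was 0.08, and 23 of the 31 were higher in Slpi-/- and 8 lower, while 51.0% of all genes were lower. In BMEos it was -0.02 (18 lower) and in BMEos with LPS -0.02 (16 lower). In none of these 4 pairs did any of the 31 genes differ by 2-fold, against 0.626%, 0.111%, 0.103% and 0.147% of all genes. The largest genotype gap of a member was 0.23 in BMBs with IgE, 0.29 in mast cells, 0.26 in BMEos and 0.29 in BMEos with LPS.

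**Figure D5:**
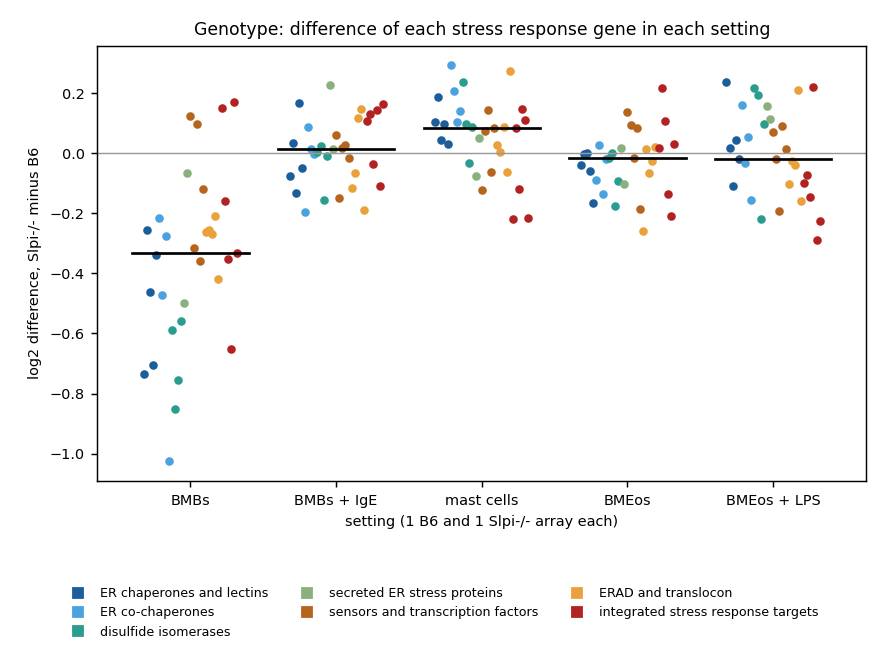
Log2 difference of Slpi-/- minus B6 (y axis) for each of the 31 genes in each of the 5 settings (x axis), 1 array of each genotype per setting; points have the colour of the gene's role and the black line is the median of the 31. The median is -0.33 in unstimulated BMBs and between -0.02 and 0.08 in the other settings.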

How the data were processed

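RNA of the 10 cultures was labelled and hybridized to Affymetrix Mouse Gene 1.0 ST arrays. The authors summarized the probe signals by RMA with the Bioconductor package affy, and the deposited log2 signals were used without further normalization. RMA makes the arrays alike in distribution (medians 5.85 to 5.94), so a shift shared by most genes would not be seen. Of 34760 probe sets, 21640 carry 1 gene symbol, 1321 several and 11799 none, and the latter kinds were left out. Symbols were updated by gene ID through RefSeq (21553 probe sets matched).

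Tests were run in limma 3.58.1 (R 4.3.3; lmFit, eBayes, Benjamini-Hochberg over all genes, threshold 0.05) on genes above background on at least 1 array of the fit. The 6 unstimulated arrays were fitted with cell type and genotype (12998 genes, 2 residual degrees of freedom). All 10 arrays were fitted with cell type by genotype means and terms for IgE and LPS (13571 genes, 2 residual degrees of freedom), and for genotype over all settings with the 5 settings as blocks (4 residual degrees of freedom). The fits were tested on data simulated with independent noise under the same designs. This cannot check the use of genotypes as replicates or a spread that differs between cell types. Precision is limited by how few arrays there are, and p-values measure only the spread between these arrays, which may be technical.

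The genes and lists were chosen with earlier results of these data known. By rule, the genes that could be named were all 31 genes, *Slpi*, the sex-linked list, the first 2 measured markers of each cell type list, and of each related pathway list up to 4 called genes per cell type or stimulus comparison, largest difference first; not all of these are named. The other markers named were chosen after their values were seen. Alternatives were centring on array medians, quantile normalization, averaging the probe sets of a gene, testing without the signal filter, a variance trend, the methods' paired t-test, other arrays in the fit and leaving out each array. Software included Python 3.11.15, pandas 2.3.3 and matplotlib 3.10.9.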

Additional observations from a re-analysis of the deposited data

How the results depend on the processing

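No called gene among the 31 changed sign under any alternative run. The methods' paired t-test, with 1 degree of freedom on 2 pairs, called 0 genes in either direction for BMBs or BMEos against mast cells, BMEos against BMBs, IgE and LPS, a design too small to speak of stability. For LPS, 1 gene was called higher with median centring, 1 with no filter on signal and 4 in a fit of the 4 BMEos arrays alone, in place of 2. Leaving out single arrays gave 6 to 15 genes higher and 3 to 6 lower for BMBs against mast cells, 3 to 9 higher and 5 to 9 lower for BMEos against mast cells, 3 to 4 higher and 6 to 15 lower for BMEos against BMBs, 11 to 19 higher and 0 to 1 lower for IgE, 0 to 0 higher and 4 to 5 lower for LPS, and 0 to 1 higher and 10 to 20 lower for LPS minus IgE. In the fits of unstimulated cell types, a lone array is assumed to vary like the other groups. For IgE and LPS, leaving out either array of a genotype left the other genotype's pair alone, with the same result. The spread then came from the other stimulated cell type, so these were not separate checks of each array. The cause of the changes was not tested. *Asns* and *Sesn2* were called higher with IgE under a variance trend (adjusted p = 0.0392 and 0.0414 by limma), though not in the main fit. The genotype comparisons called 0 of the 31 genes under every alternative run. The comparisons of cell types and stimuli were paired by genotype in the fits themselves, and replicate numbers pair no samples, since each condition has 1 array.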
